A study of Mus musculus and Homo sapiens with 41 samples.

Results

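The vomeronasal type 1 receptor genes were taken as all protein-coding mouse genes of GENCODE vM21 whose symbol is Vmn1r followed by digits, which gave 207 of the 21938 protein-coding genes on the autosomes, X and Y (206 symbols, since Vmn1r216 is annotated at 2 places). The family was chosen because 1 of its members, Vmn1r204, differed between untransfected Tet2-KO and WT mouse embryonic stem cells (mESCs) in an earlier pass over these data, so that contrast is described below with no test. CUT&Tag, in which a transposase held at an antibody cuts and tags nearby DNA, was used on 29 mouse libraries in 10 groups of 3 (BAP1 in 2), and 12 libraries of human K-562 cells in the same series of 41 were not used because the rule concerns mouse genes. Ubiquitylated histone H2A (H2AK119ub) was mapped in Tet2-KO mESCs and WT mESCs without transfection. It was also mapped in mESCs given small interfering RNA, namely Tet2-KO cells with siMbd6, siNsun2 or the non-targeting siNC, and WT cells with siNC. The third experiment used haematopoietic stem and progenitor cells (HSPCs), the lineage-depleted, c-Kit-selected bone marrow cells of mice 6 to 8 weeks old, as Tet2-KO cells with shMbd6 or the non-targeting shNC and WT cells with shNC. The HSPC protocol names a culture of 7 days before assay. BAP1 was mapped in 2 libraries of WT mESCs. The KO mESC groups share the loss of Tet2 and came with the WT line from another laboratory, and the number of KO clones is not given in the sources used here. The study calls the replicates of its genome-wide data biological, but whether they were separate cultures or animals is not given in the sources used here, so p-values measure the spread between libraries.

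Each library is a list of broad peaks, and a base is called covered where it lies in a listed peak. The closest measure of yield is the peak number, since the sequencing depth is unknown. Untransfected KO libraries listed 26316 to 35509 peaks, against 24913 to 37371 in untransfected WT libraries. KO siNC libraries listed 4251 to 9350 peaks, KO siMbd6 libraries 5606 to 12139 and KO siNsun2 libraries 4597 to 9234, against 24360 to 37392 in WT siNC libraries. In HSPCs there were 7650 to 8286 peaks with KO shMbd6 and 1398 to 1451 with KO shNC, against 3979 to 4629 with WT shNC. Replicate 1 listed the fewest peaks in each of the 6 mESC groups of H2AK119ub. Every result below is read beside these totals, whose part in the results was not tested. The peak lists hold no RNA values, so neither the cell types nor the loss of Tet2, Mbd6 or Nsun2 was checked in them.

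Vmn1r genes encode G protein-coupled receptors of the apical sensory neurons of the vomeronasal organ, which detect small volatile cues from other animals. They signal through the G protein subunit encoded by Gnai2 and the channel encoded by Trpc2, and each neuron is known to express a single receptor gene of the family. The genes stand in large arrays, have a single coding exon, and have multiplied by duplication in rodents, so that many neighbours are close copies and the DNA between them is rich in interspersed repeats. H2AK119ub is laid down by Polycomb repressive complex PRC1 and is removed by PR-DUB, whose catalytic subunit is BAP1, and MBD6 is a partner of PR-DUB. TET2 oxidizes 5-methylcytosine, and NSUN2 places that mark on RNA.

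The DNA under the peaks is shown first because the results turn on which sequence carried them. The 4 stretches below are the 200 bases of the GRCm38 (mm10) reference covered in the most libraries near 4 members. CpG dinucleotides are in capitals. The stretch near Vmn1r204 is chr13:22549351-22549550 on the forward strand and holds 14 CpG. The stretch near Vmn1r48 is chr6:90034887-90035086 on the reverse strand and holds 16. The stretch near Vmn1r29 is chr6:58298545-58298744 on the reverse strand and holds 10, and that near Vmn1r101 is chr7:20445259-20445458 on the forward strand and holds 7. The first 3 are written in the direction of the match to LINE primers, described below, that follows them. All lie outside the exons of the receptor genes.
Vmn1r204: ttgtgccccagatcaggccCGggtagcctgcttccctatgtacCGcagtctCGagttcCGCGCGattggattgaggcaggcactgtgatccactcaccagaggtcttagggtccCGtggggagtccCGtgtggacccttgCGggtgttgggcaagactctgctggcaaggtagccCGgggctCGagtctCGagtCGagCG
Vmn1r48: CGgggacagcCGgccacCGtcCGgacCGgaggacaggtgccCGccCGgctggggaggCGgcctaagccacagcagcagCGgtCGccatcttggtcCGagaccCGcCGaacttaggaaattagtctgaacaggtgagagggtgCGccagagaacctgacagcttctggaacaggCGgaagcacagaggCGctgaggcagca
Vmn1r29: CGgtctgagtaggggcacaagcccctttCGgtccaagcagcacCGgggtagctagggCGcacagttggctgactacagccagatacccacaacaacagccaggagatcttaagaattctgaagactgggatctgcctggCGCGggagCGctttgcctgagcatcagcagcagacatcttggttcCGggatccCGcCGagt
Vmn1r101: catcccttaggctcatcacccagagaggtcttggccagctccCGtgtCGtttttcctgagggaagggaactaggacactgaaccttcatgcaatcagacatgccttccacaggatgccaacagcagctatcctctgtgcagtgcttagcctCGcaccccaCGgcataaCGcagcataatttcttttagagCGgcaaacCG

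Most of the family had no listed H2AK119ub at its start sites. In windows of 5 kb to each side of the annotated transcription start site (TSS), 12 of the 207 members (5.80%) had a covered base in any of the 27 H2AK119ub libraries and 195 had none, against 72.2% of all protein-coding genes. In the families most like it these were 6.78% of 1135 olfactory receptor (Olfr) genes and 2.5% of 120 vomeronasal type 2 receptor (Vmn2r) genes. Of the 12 covered members, 8 were covered in 3 or more libraries, namely Vmn1r4 in 16, Vmn1r48 in 11, Vmn1r204 in 10, Vmn1r29 and Vmn1r86 in 9 each, Vmn1r149 in 5, and Vmn1r1 and Vmn1r101 in 4 each. Vmn1r54, Vmn1r58, Vmn1r180 and Vmn1r192 were covered in 1 library each. Vmn1r58 lies just inside the rule for a covered window, with 65 bases of a single peak reaching into it. The 12 are mapped library by library in the plot of covered members.

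**Figure D1:**
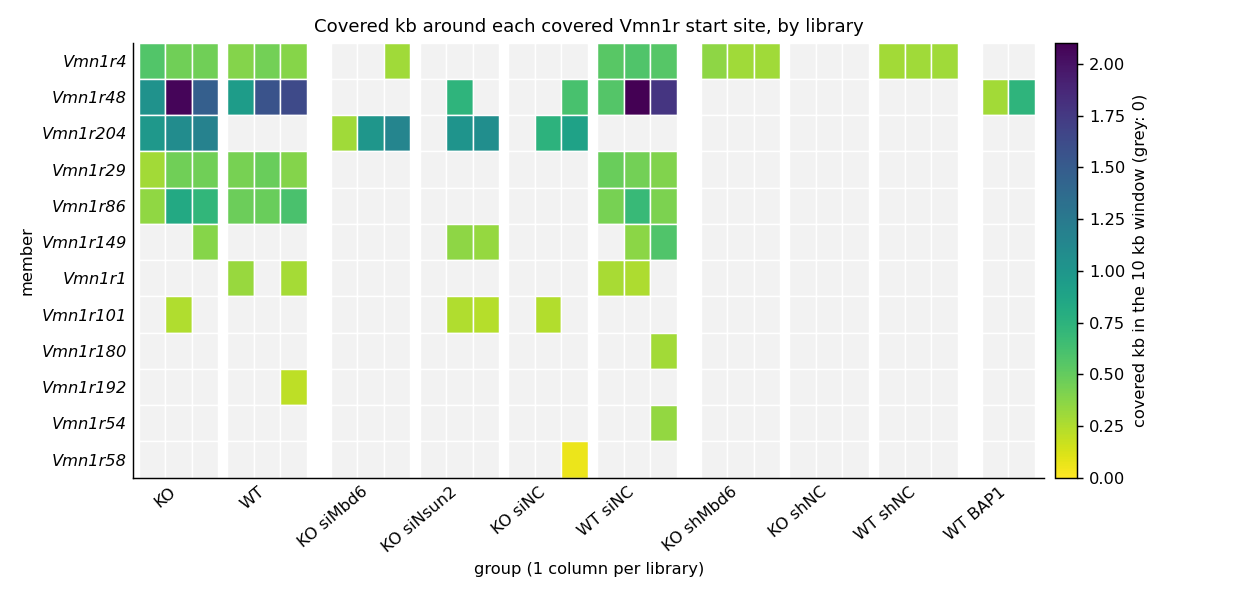
Covered kb in the 10 kb window around the TSS of the 12 covered Vmn1r genes (rows) in each of the 29 mouse libraries (columns, grouped; grey cells are 0). Vmn1r204 was covered in 10 of 12 KO mESC libraries and in 0 of 6 WT mESC libraries, a tally that holds the untransfected libraries on which it was chosen. Vmn1r4 was the only member covered in HSPCs.

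The windows of the family are poor in CpG, and the covered ones were the richer among them. A Vmn1r window held a median of 43 CpG (22 to 200), against 151 over all protein-coding genes. Olfr and Vmn2r windows were as poor, with a median of 41 each. The 12 covered windows held a median of 78.5 and the 195 others a median of 42. Of the 136 Vmn1r windows with under 50 CpG, 1.47% were covered in any library, of the 65 with 50 to 99, 7.69%, and of the 5 with 100 or more but under 200, 80%. The same bins of protein-coding genes outside the 3 receptor families were covered in 8.23%, 34.7% and 87.7%. Olfr windows showed the same rise, with 2.13%, 13.2% and 58.8%. The 6 members with 100 or more CpG were Vmn1r48 (200), Vmn1r4 (144), Vmn1r45 (140), Vmn1r149 (124), Vmn1r101 (123) and Vmn1r204 (the fewest of the 6), and all of these but Vmn1r45 were covered.

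**Figure D2:**
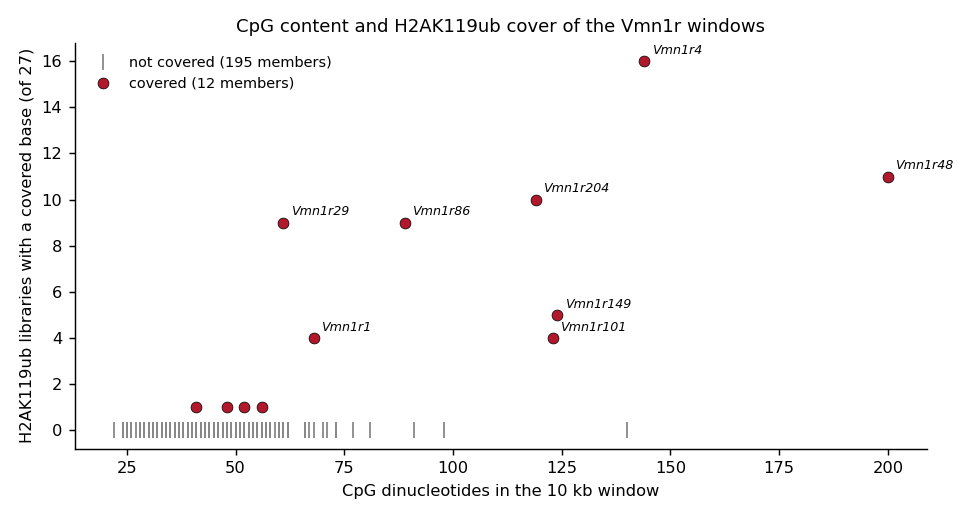
Number of H2AK119ub libraries (of 27) with a covered base against the number of CpG dinucleotides in the 10 kb window of each Vmn1r gene. Ticks are the 195 members never covered and points the 12 covered; the 4 points at 1 library are Vmn1r54, Vmn1r58, Vmn1r180 and Vmn1r192, and the isolated tick at 140 CpG is Vmn1r45.

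The start sites themselves hold almost no CpG. RefSeq promoters (GRCm38.p6, 250 bases before to 50 after the start) matched 205 members, with a median of 1 CpG (0 to 6), against 7 over all 32851 promoters. The letters CG were absent from 44 of the 205 (21.5%), against 5.43% of all promoters, in a search that needs no second strand because CG reads the same on both. The family is also hard to map. A median of 79% of the 50-base words in a Vmn1r window occurred once in the genome, against 97% over all windows. Vmn2r windows were close to this, with 83%, while Olfr windows had 94%. In addition, 54 members shared their whole promoter with another member (21 distinct sequences). Reads from such copies cannot be told apart, and Bowtie2 reports 1 of several equally good alignments, so a peak between close copies may belong to any of them.

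In untransfected mESCs, Vmn1r204 carried about 1 kb of H2AK119ub in KO cells and none in WT cells. Its window held 0.985, 1.091 and 1.182 kb in the 3 KO libraries, against 0 kb in each WT library, which is the observation that led to the family. The groups do not overlap, in a contrast where 0.0234% of the 12836 windows tested passed limma's adjusted threshold of 0.05 in either direction and 10.9% of windows had groups that do not overlap. The count is the rule's own and nothing is read from it. The stretch merged from the peaks of all libraries spans chr13:22548898-22550136, ends 3062 bases upstream of the annotated TSS and lies 6.07 kb from the start codon. No peak covered the 5 members within 100 kb, which are Vmn1r203 (35.1 kb away), Vmn1r205 (39.8 kb), Vmn1r202 (47.8 kb), Vmn1r206 (71.1 kb) and Vmn1r201 (81.3 kb).

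The other members that entered the untransfected fit were covered in every KO and every WT library. Vmn1r48 held 1.036, 2.076 and 1.475 kb in KO libraries, against 0.947, 1.563 and 1.631 kb in WT libraries. Vmn1r4 held 0.573, 0.460 and 0.453 kb in KO libraries, against 0.393, 0.448 and 0.385 kb in WT libraries. The groups overlap for Vmn1r48, while for Vmn1r4 the lowest KO value lies just above the highest WT value. Vmn1r86 held 0.349 to 0.836 kb in KO libraries, against 0.475 to 0.607 kb in WT libraries. Vmn1r29 held 0.293 to 0.460 kb in KO libraries, against 0.394 to 0.480 kb in WT libraries. Both overlap, and 5 of the 207 members had enough covered libraries in this experiment (3 or more) to enter the fit. Vmn1r1 was covered in no KO library, against 0.328 and 0.286 kb in 2 of 3 WT libraries.

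The siRNA experiment gives the same genotypes in other libraries and can be tested. With siNC, 4 of the 7 members that entered the fit were lower in KO than in WT mESCs and none was higher, where 72.1% of all 10772 windows tested passed, 71.9% lower and 0.214% higher. The members' share (4 of 7) is therefore no larger than the background, and the KO siNC libraries list far fewer peaks than the WT siNC libraries. None of these 4 would have entered the fit without the WT siNC libraries, so a lower value in KO was favoured in advance. The median difference was -0.44 kb over the 7 members and -0.42 kb over all windows. When libraries were scaled to equal covered length, the median over all windows was -0.14 kb and 3 of the 7 members were lower. Of all windows 3858 were then lower and 286 higher, against 7744 and 23 unscaled. The 3 members, Vmn1r4, Vmn1r29 and Vmn1r86, were at 0 in every KO siNC library. Scaling keeps a 0 at 0, so their direction was fixed in advance.

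Vmn1r29 was covered in no KO siNC library, against 0.478, 0.448 and 0.395 kb in the 3 WT siNC libraries (difference -0.44 kb, SE 0.0277, limma adjusted p = 8.12e-07). Vmn1r86 was also at 0 in every KO siNC library, against 0.434, 0.687 and 0.413 kb with WT siNC (-0.51 kb, SE 0.0619, limma adjusted p = 5.80e-05). Vmn1r4 was at 0 in every KO siNC library, against 0.546, 0.580 and 0.556 kb with WT siNC (-0.56 kb, SE 0.0700, limma adjusted p = 7.14e-05). The groups of these 3 do not overlap, as in 73.9% of all windows, and since libraries that are all at 0 have no spread of their own, such p-values can be too small. Vmn1r29 and Vmn1r86 were covered in no KO library of this experiment. They entered the fit through the WT siNC libraries alone and could only come out lower, so nothing is read from their p-values. Vmn1r48 held 0, 0 and 0.614 kb in KO siNC libraries, against 0.561, 2.103 and 1.782 kb in WT siNC libraries (-1.28 kb, SE 0.373, limma adjusted p = 0.0118). Its groups overlap, and the call was lost when libraries were scaled to equal covered length (limma adjusted p = 0.566).

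Vmn1r204 went the other way, although it did not pass. It held 0, 0.754 and 0.893 kb in KO siNC libraries, against 0 kb in each WT siNC library (0.55 kb, SE 0.338, limma adjusted p = 0.162). The 1 uncovered KO siNC library is the one with the fewest peaks in its group, 4251. Vmn1r149 was at 0 in every KO siNC library, against 0, 0.368 and 0.579 kb with WT siNC (-0.32 kb, SE 0.136, limma adjusted p = 0.0599). Vmn1r101, whose peak has the same sequence as that of Vmn1r149, held 0, 0.242 and 0 kb in KO siNC libraries, against 0 kb in every WT siNC library (0.08 kb, SE 0.0782, limma adjusted p = 0.360). The stretches near Vmn1r101 and Vmn1r149 are identical over 396 bases, are 2.81 and 2.64 kb upstream of their starts by their centres, and hold no single-copy 50-base word, so their separate values cannot be told apart.

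Knockdown of Mbd6 or Nsun2 in KO mESCs gave no member past the threshold. With siMbd6 against siNC, 0 of 7 members passed limma and none had an unadjusted p under 0.05, where 0.176% of all windows passed. Vmn1r204 held 0.302, 0.996 and 1.146 kb in KO siMbd6 libraries, against 0, 0.754 and 0.893 kb in KO siNC libraries (0.27 kb, SE 0.338). Vmn1r4 held 0, 0 and 0.302 kb with KO siMbd6, against 0 kb in every KO siNC library, and Vmn1r48 and Vmn1r101 were at 0 with KO siMbd6, against 1 covered KO siNC library each. All of these groups overlap, where 2.92% of all windows had groups that do not. With siNsun2 against siNC, 0 of 7 members passed limma and none had an unadjusted p under 0.05, where 0.0186% of all windows passed and 2.13% had groups that do not overlap.

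Vmn1r204 held 0, 1.012 and 1.069 kb in KO siNsun2 libraries (0.14 kb above KO siNC, SE 0.338). Vmn1r149 held 0, 0.360 and 0.331 kb in KO siNsun2 libraries, against 0 kb in every KO siNC library (0.23 kb, SE 0.136). Vmn1r101 held 0, 0.248 and 0.238 kb with KO siNsun2, against 0, 0.242 and 0 kb with KO siNC (0.08 kb, SE 0.0782). Both knockdowns are set against the same siNC libraries. Over the whole series Vmn1r204 was covered in 10 of 12 KO mESC libraries, in 0 of 6 WT mESC libraries and in 0 of 9 HSPC libraries. This tally holds the untransfected libraries on which the gene was chosen. In the siRNA experiment alone it was covered in 2 of 3 KO siNC, 3 of 3 KO siMbd6, 2 of 3 KO siNsun2 and 0 of 3 WT siNC libraries. The KO libraries share a source, and the share of all windows with such a pattern was not counted, so nothing is read from the tally.

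In HSPCs a single member was covered. Vmn1r4 was at 0 in all 3 KO shNC libraries, against 0.294, 0.300 and 0.300 kb in WT shNC libraries (-0.30 kb, SE 0.0472, limma adjusted p = 0.00243), where 22.8% of the 4250 windows tested passed and 0.0235% were higher. Vmn1r4 held 0.360, 0.300 and 0.302 kb in KO shMbd6 libraries, against 0 kb in each KO shNC library (0.32 kb, SE 0.0472, limma adjusted p = 0.000771), where 72.1% of windows passed, 72% higher and 0.0941% lower. Groups do not overlap in either comparison, which was also so for 28.7% and 73% of all windows. Both comparisons rest on the same KO shNC libraries, which list the fewest peaks of any group of HSPCs. The window of Vmn1r4 entered the fit through the WT shNC and KO shMbd6 libraries alone. With every KO shNC library at 0, it could only come out lower than with WT shNC and higher with KO shMbd6. Libraries that are all at 0 have no spread of their own, so such p-values can be too small. Nothing is read from the p-values of Vmn1r4 in HSPCs. When libraries were scaled to equal covered length, 194 windows were higher and 762 lower in KO shNC than in WT shNC cells, against 1 and 967 unscaled, and 1186 were higher and 204 lower with KO shMbd6 than with KO shNC, against 3062 and 4 unscaled. Vmn1r4 passed in the same direction in both scaled fits, but scaling keeps its KO shNC values at 0, so that direction was fixed in advance.

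The covered stretch of Vmn1r4 is the start of another gene. It spans chr6:56923860-56924502, holds 37 CpG in 643 bases, consists wholly of single-copy 50-base words and overlaps a start of Nt5c3, which encodes a pyrimidine nucleotidase. The annotated start of Vmn1r4 lies inside it, but its start codon is 32.01 kb away. It was covered in all 6 WT mESC libraries and in 4 of 12 KO mESC libraries.

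The stretches near the other members are of another kind. That of Vmn1r48 spans chr6:90033533-90035756, holds 150 CpG in 2224 bases, is soft-masked as repeat over its whole length and has no single-copy 50-base word (median 1405.5 copies). It begins 1.09 kb downstream of the start, beyond the annotated end of the gene, and holds the widest peak of any member, 2103 bases. That of Vmn1r204 is also wholly soft-masked, with 65 CpG in 1239 bases and a median of 1196 copies. That of Vmn1r29 spans chr6:58298333-58298866, has a median of 1 copy and lies 8.43 kb from the start codon. That of Vmn1r86 spans chr7:13123597-13124469, holds 44 CpG in 873 bases and has a median of 2 copies. That of Vmn1r1, the only one of the 12 outside a cluster, spans chr1:182162925-182163332 with 5 CpG.

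Other genes of vomeronasal signalling were counted for comparison, from a list of 47 that was written with results of these data known. Of the 23 that entered the fit in untransfected mESCs, none passed limma, and that contrast is described only. With siNC, 11 of 21 were lower in KO than in WT mESCs, none was higher and 10 did not pass, against the background of 71.9% lower. Their median difference was -0.32 kb, against -0.42 kb over all windows. Omp, the olfactory marker protein of mature sensory neurons, averaged 0 kb with KO siNC and 0.494 ± 0.248 kb with WT siNC (SD, n = 3 each, limma adjusted p = 0.00295). Gnai2 averaged 0.091 ± 0.158 kb with KO siNC and 0.376 ± 0.0242 kb with WT siNC (SD, n = 3 each, limma adjusted p = 0.00308). Bcl11b, a transcription factor needed in vomeronasal neurons, averaged 0 kb with KO siNC and 0.723 ± 0.0928 kb with WT siNC (SD, n = 3 each, limma adjusted p = 0.00275). Trpc2 did not enter the fit. With siMbd6 or siNsun2, 0 of 21 passed. In HSPCs 1 of 6 was lower with KO shNC than with WT shNC, namely Nrp2, a receptor of axon guidance, where 22.8% of all windows were lower. With KO shMbd6, 2 of 6 (Nrp2 and Gnai2) were higher than with KO shNC, where 72% of all windows were higher.

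Between the receptor genes H2AK119ub was less bare. Members less than 1 Mb apart were joined into clusters of 3 or more, which gave 8 clusters with 200 members over 12.3 Mb on chromosomes 6, 7, 13 and 17, from 8 members in 0.268 Mb on chromosome 6 to 65 in 3.97 Mb on chromosome 7. In untransfected cells the clusters held 3.49, 4.87 and 4.79 kb of H2AK119ub per Mb in KO libraries, against 2.35, 3.38 and 3.56 kb per Mb in WT libraries. These groups overlap. As a share of the library's covered bases the clusters made up 0.372%, 0.356% and 0.350% in KO libraries, against 0.299%, 0.272% and 0.271% in WT libraries. These do not overlap, and since the family was chosen on this contrast they are given with no test.

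With siNC the 2 measures ran in opposite directions. Clusters held 1.27 ± 0.512 kb per Mb in KO siNC libraries and 3.26 ± 0.820 kb per Mb in WT siNC libraries (SD, n = 3 each, exact permutation p = 0.1, the smallest that 3 against 3 allows, adjusted over 5 comparisons p = 0.167). As a share of covered bases they made up 0.453 ± 0.0264% in KO siNC libraries and 0.280 ± 0.00636% in WT siNC libraries (SD, n = 3 each, exact permutation p = 0.1, adjusted p = 0.25). The groups do not overlap in either measure. The whole libraries covered 1.82 to 4.30 Mb with KO siNC, against 10.0009 to 16.98 Mb with WT siNC. With all listed peaks, neither knockdown gave a difference larger than the spread between libraries. KO siMbd6 libraries held 1.46 ± 0.645 kb per Mb (SD, n = 3, against KO siNC exact permutation p = 0.8) and KO siNsun2 libraries 1.34 ± 0.693 kb per Mb (SD, n = 3, exact permutation p = 0.8). The shares were 0.442 ± 0.0519% with KO siMbd6 and 0.469 ± 0.0988% with KO siNsun2 (SD, n = 3 each, exact permutation p = 0.9 for both). With only peaks at a −log10 q of 5 or more the share was 0.182% to 0.272% with KO siMbd6, against 0.375% to 0.563% with KO siNC (difference -0.225 points, exact permutation p = 0.1), and these groups do not overlap.

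**Figure D3:**
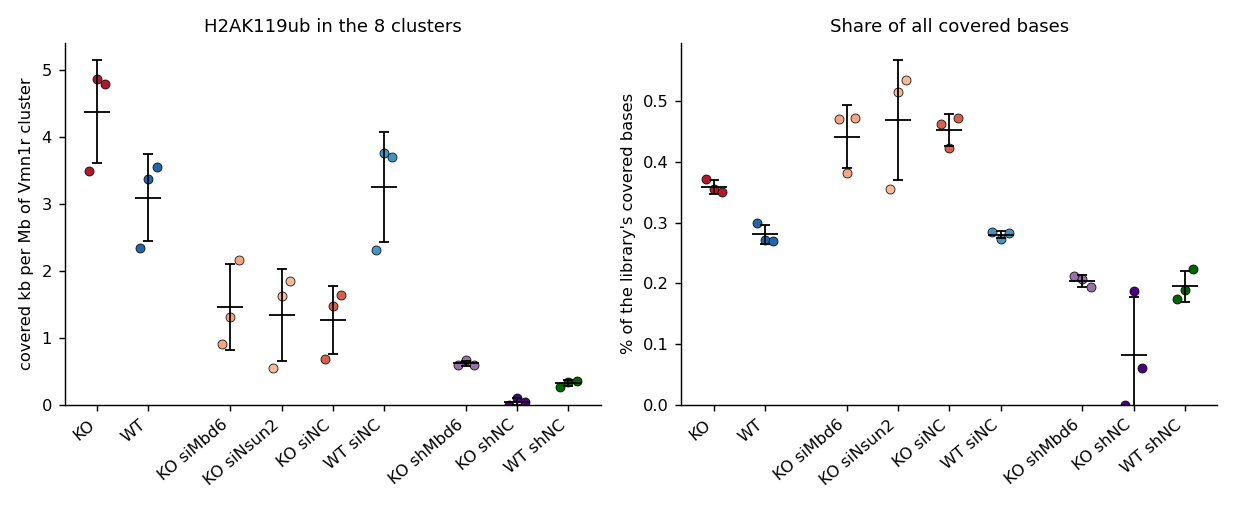
H2AK119ub in the 8 Vmn1r clusters per library, as covered kb per Mb of cluster (left) and as a share of the library's covered bases (right). Points are libraries, long bars means and error bars SD (cut at 0). KO siNC libraries sit at 0.684 to 1.64 kb per Mb, below WT siNC libraries at 2.31 to 3.76, but at 0.423% to 0.472% of covered bases, above 0.273% to 0.285%.

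In HSPCs the clusters were nearly bare. They held 0.0451 ± 0.0528 kb per Mb with KO shNC and 0.319 ± 0.0453 kb per Mb with WT shNC (SD, n = 3 each, exact permutation p = 0.1, adjusted p = 0.167). KO shMbd6 libraries held 0.618 ± 0.0399 kb per Mb and KO shNC libraries 0.0451 ± 0.0528 kb per Mb (SD, n = 3 each, exact permutation p = 0.1, adjusted p = 0.167). The share of covered bases was 0.0821 ± 0.0954% with KO shNC and 0.195 ± 0.0253% with WT shNC (SD, n = 3 each, exact permutation p = 0.2), and the KO shNC values of 0%, 0.187% and 0.0597% rest on at most 1.27 kb of peaks. With KO shMbd6 it was 0.204 ± 0.00956%, against 0.0821 ± 0.0954% with KO shNC (SD, n = 3 each, exact permutation p = 0.1, adjusted p = 0.25). With clusters joined across gaps of 200 kb or less both differences turned, to 0.0228 points for KO shNC against WT shNC and -0.0165 for KO shMbd6 against KO shNC. Over siNC mESCs and HSPCs together, with labels permuted within each, the KO minus WT difference in share was 0.0298 percentage points (exact permutation p = 0.595). The KO minus WT value was 0.173 points in siNC mESCs and -0.113 in HSPCs (difference 0.286 points, exact permutation p = 0.01). Labels were permuted within each experiment, so this p is set against no effect of Tet2 loss in either. It cannot tell whether the 2 effects differ. Cell type, the kind of RNA given and peak number differ together between the 2 experiments and cannot be told apart.

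The density of covered bases in the clusters was 59.9% to 118% of the genome's density in mESC libraries and 0% to 49.3% in HSPC libraries, with 77.4% to 82.3% in untransfected KO libraries, against 59.9% to 66.2% in untransfected WT libraries. In mESCs the soft-masked part of the covered bases was larger in KO than in WT libraries, inside and outside the clusters. In untransfected cells soft-masked repeats made up 61.0% to 61.5% of the covered cluster bases in KO libraries, against 47.3% to 53.0% in WT libraries, where the clusters as a whole are 55.0% soft-masked. Outside the clusters these were 26.4% to 27.5% in KO libraries, against 19.7% to 21.8% in WT libraries. With siNC the clusters had 69.8% to 74.4% in KO libraries, against 47.0% to 53.3% in WT libraries, and the rest of the genome 35.2% to 39.4% in KO libraries, against 19.0% to 21.3% in WT libraries. In HSPCs the clusters had 10.24% to 14.1% with KO shMbd6 and 39.1% and 0% in the 2 KO shNC libraries with a covered base there, against 9.99% to 13.2% with WT shNC. Outside the clusters HSPC libraries had 12.2% to 13.1% with KO shMbd6 and 42.1% to 46.7% with KO shNC, against 18.0% to 19.0% with WT shNC. There the 2 KO groups lay on opposite sides of the WT group.

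The individual clusters did not all follow the sum. The cluster of 8 members on chromosome 6 held 6.98 kb per Mb in untransfected KO libraries and 1.94 in WT libraries on average, and 4.73 with KO siNC and 1.70 with WT siNC. The cluster of 35 members on chromosome 13, which holds Vmn1r204, averaged 1.90 kb per Mb in KO and 1.26 in WT libraries. The cluster of 14 members on chromosome 17 averaged 3.38 kb per Mb in KO and 4.22 in WT libraries, and 0.227 with KO siNC and 4.77 with WT siNC.

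All peaks in clusters and member windows were merged into 157 regions, of which 12 touched a member window. By position and sequence they fell into groups, which were defined after values were seen and are described with no test. In 25 of them the region lay within 1 kb of a start of another named gene. Regions alike in sequence (80% identity over 50% of the shorter) made up sequence type 1 with 22 regions, type 2 with 20, type 3 with 18 and type 4 with 6, and 66 belonged to none of these, among them smaller groups of like sequence such as the regions near Vmn1r101 and Vmn1r149. The Vmn1r204 stretch printed above is of type 2, that of Vmn1r48 of type 3 and that of Vmn1r29 of type 1. In all 68 regions were over 90% soft-masked and 53 held no single-copy 50-base word.

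Most regions of these types stand within a narrow range of distances upstream of a match to the study's LINE primers. A pair of primers that the study used for LINE was searched for in the genome (up to 2 mismatches each, at most 400 bases apart). They are shown because the types are placed by their distance to such a match.
mLINE-F: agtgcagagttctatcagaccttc
mLINE-R: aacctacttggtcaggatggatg
All 20 regions of type 2, all 18 of type 3, all 6 of type 4 and 14 of 22 of type 1 lay within 6 kb upstream of such an amplicon on its own strand, at median distances of 2691, 2819.5, 2901.5 and 2600 bases, against 2 of the 66 others and 0 of the 25 at other genes' starts. The region near Vmn1r204 lay 599 bases from its amplicon, the shortest distance of type 2. That near Vmn1r48 lay 2941 bases away, the longest of type 3, and that near Vmn1r29 2576 bases away. No repeat annotation was used, so the name LINE rests on the primers alone and where the repeat begins was not determined. Regions of types 2, 3 and 4 were themselves soft-masked over a median of 100% of their length.

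Among the types, only type 2 held more in KO than in WT libraries in both mESC experiments. Type 2 regions held 10.7 to 13.6 kb in all in untransfected KO libraries, against 0 to 2.97 kb in WT libraries, and 15 of the 20 were covered in every KO library and 0 were covered in every WT library. The regions were merged from the peaks of all libraries, and 11 of the 20 were covered in no untransfected WT library. This contrast is thus partly built into the list. With siNC, type 2 regions held 8.13 ± 2.81 kb in KO and 1.46 ± 1.38 kb in WT libraries (SD, n = 3 each), although KO siNC libraries list far fewer peaks. With siMbd6 and siNsun2 they held 8.07 ± 2.56 kb and 7.79 ± 4.06 kb (SD, n = 3 each). Vmn1r204 is the 1 member window with a region of this type. Type 3 regions held 10.07 ± 2.36 kb in untransfected KO and 9.07 ± 2.501 kb in WT libraries, but 1.15 ± 1.01 kb with KO siNC and 9.75 ± 3.50 kb with WT siNC (SD, n = 3 each). Type 1 regions held 7.71 ± 1.53 kb in untransfected KO and 5.40 ± 0.665 kb in WT libraries, and 0.338 ± 0.384 kb with KO siNC and 6.01 ± 0.409 kb with WT siNC (SD, n = 3 each).

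Regions at other genes' starts were also low in KO siNC libraries. They held 11.7 ± 2.65 kb in untransfected KO and 10.42 ± 2.08 kb in WT libraries, and 0.973 ± 0.635 kb with KO siNC and 10.62 ± 1.49 kb with WT siNC (SD, n = 3 each). In HSPCs these were the main class, with 4.65 ± 0.684 kb with KO shMbd6 and 0.098 ± 0.170 kb with KO shNC, against 2.04 ± 0.418 kb with WT shNC (SD, n = 3 each). Types 1, 3 and 4 were at 0 in every HSPC library, and type 2 was covered in 1 KO shMbd6 library (0.489 kb).

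**Figure D4:**
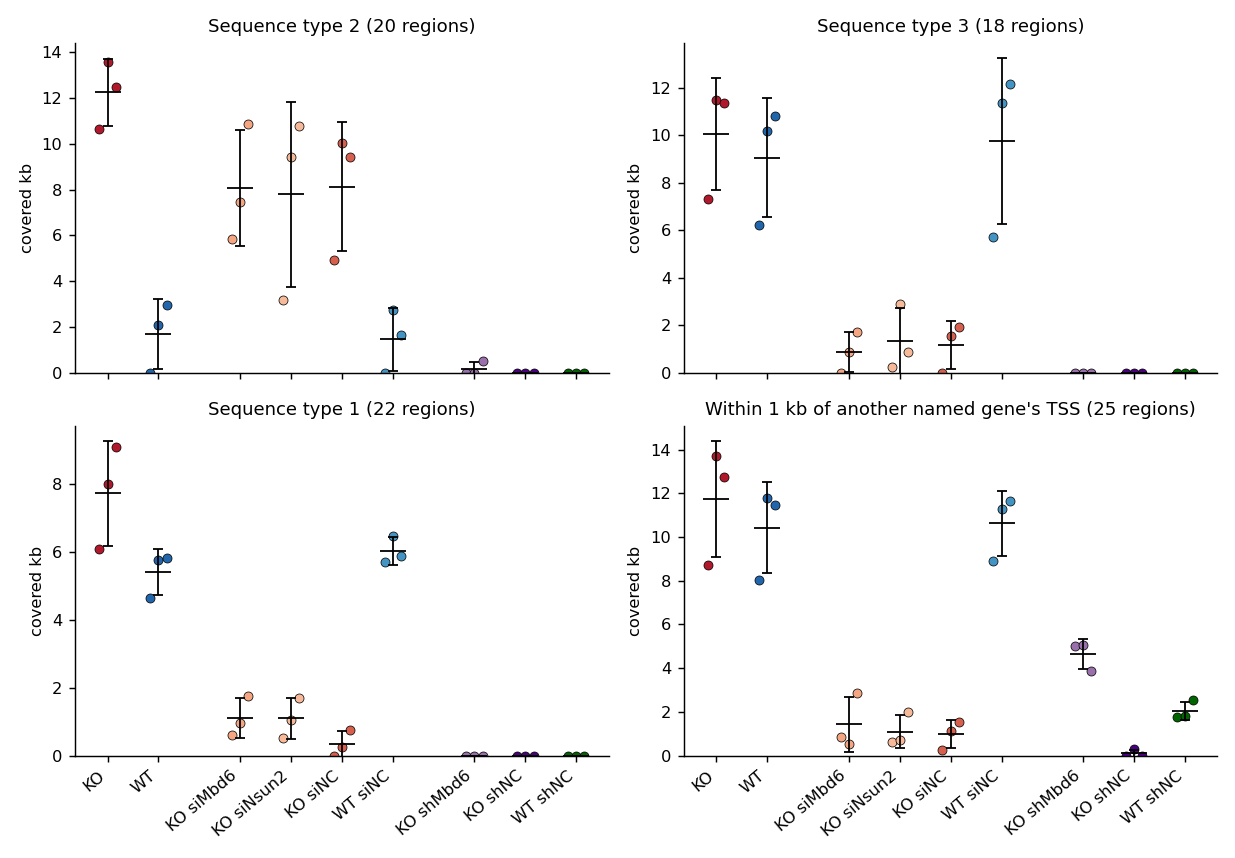
Covered kb per library in 4 classes of the regions of the Vmn1r clusters; points are libraries, long bars means, error bars SD (cut at 0), and the panels have their own vertical scales. Type 2 is above 3 kb in all 12 KO mESC libraries and below 3 kb in all 6 WT mESC libraries, while the other 3 classes are low in KO siNC, KO siMbd6 and KO siNsun2 libraries. The regions were merged from the peaks of all libraries, KO included.

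Loci of the same types were also covered outside the clusters. The clusters held 271 amplicon loci, 22.0 per Mb, against 19947 or 7.35 per Mb in the rest of the genome, and each locus was given a type by the sequence 5′ of it. A covered base 2 to 5 kb 5′ of the amplicon was listed at 25.4% to 29.9% of the 67 type 2 loci of the clusters in untransfected KO libraries, against 0% to 10.45% in WT libraries. At the 5513 type 2 loci outside the clusters, which lie outside the regions that defined the types, the shares were 31.1% to 38.3% in KO libraries, against 2.503% to 10.14% in WT libraries. With siNC the clusters had 14.9% to 23.9% in KO libraries, against 0% to 8.96% in WT libraries, and the rest of the genome 11.6% to 23.6% in KO libraries, against 1.78% to 8.45% in WT libraries. Loci share their sequence, so they are not independent, and reads that fit many copies can add to any of them.

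Type 3 loci did not separate the genotypes in untransfected cells. In clusters 12.5% to 16.3% of 104 were covered in KO libraries, against 9.62% to 16.3% in WT libraries, and outside them 19.8% to 29.2% in KO libraries, against 19.2% to 28.4% in WT libraries. Of the 16 type 1 loci of the clusters, 62.5% to 81.3% were covered in KO libraries, against 56.3% in each WT library, and of the 419 elsewhere 28.6% to 35.3% in KO libraries, against 26.0% to 33.4% in WT libraries. With siNC, type 1 loci of the clusters had 0% to 12.5% in KO libraries, against 56.3% to 62.5% in WT libraries. Elsewhere type 1 loci had 2.63% to 7.88% with KO siNC, against 23.6% to 31.7% with WT siNC. Type 3 loci were also lower with KO siNC. In clusters they had 0% to 3.85%, against 9.62% to 16.3% with WT siNC. Elsewhere they had 0.717% to 6.09%, against 17.7% to 27.1% with WT siNC.

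**Figure D5:**
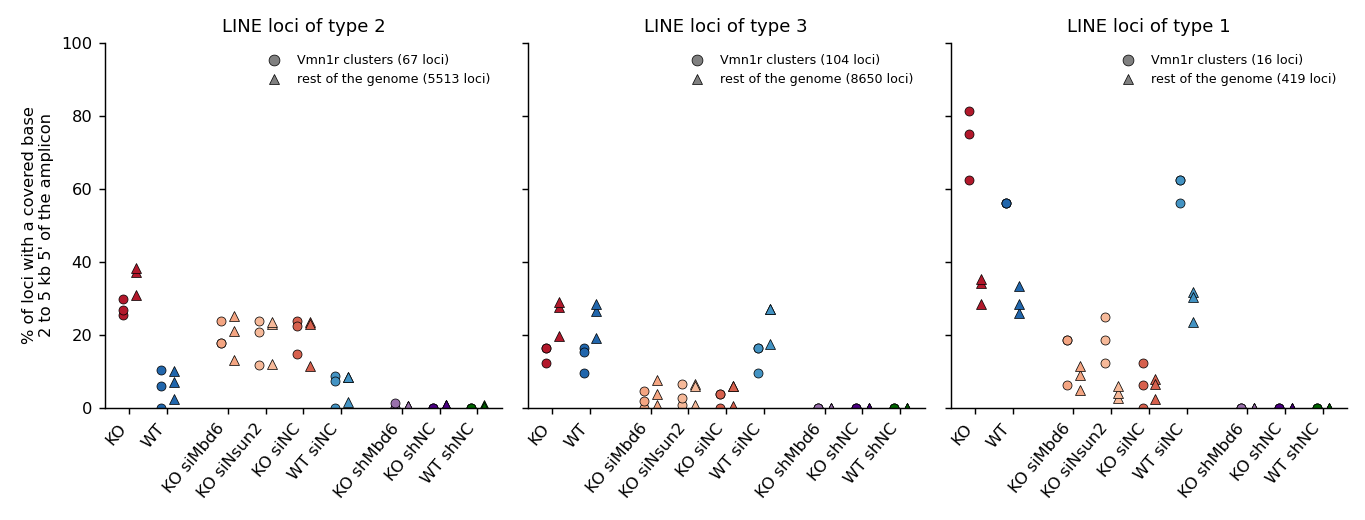
Share of LINE amplicon loci (%) with a covered base 2 to 5 kb 5′ of the amplicon, per library, for sequence types 2, 3 and 1; circles are loci in Vmn1r clusters and triangles loci in the rest of the genome. Type 2 loci lie at 11.6% or more in all KO mESC libraries and at 10.45% or less in all WT mESC libraries, inside and outside the clusters.

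Several regions are copies of each other. On chromosome 7 the stretch around Vmn1r100 and Vmn1r101 is repeated around Vmn1r148 and Vmn1r149. Regions 10.59 kb from the start of Vmn1r100 and 10.57 kb from that of Vmn1r148 were identical over 662 bases. Regions 10.81 kb from Vmn1r114 and 10.79 kb from Vmn1r126 were 99.1% identical over 672 bases. Peaks at such pairs are listed apart, but reads from the 2 copies cannot be told apart.

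In the clusters BAP1 lay in repeats, and near the start sites it was no more frequent than over all genes. Vmn1r48 was the 1 member of 207 (0.483%) with a BAP1-covered base within 5 kb. In replicates 1 and 2 this was so for 0.597% and 0.697% of all windows, and for 0.617% and 0.264% of Olfr windows. Vmn1r48 held 0.293 kb in replicate 1 and 0.734 kb in replicate 2, in the same stretch that carried H2AK119ub in all 6 WT mESC libraries. The clusters held 12 of the 2013 BAP1 peaks of replicate 1 and 15 of the 2233 of replicate 2, 0.590% and 0.658% of covered bases, a density of 130% and 146% of the genome's. With only peaks at a −log10 q of 5 or more, the density was 128% of the genome's in replicate 1 and 37.1% in replicate 2. In the clusters 8 peaks of each library overlapped one of the other. With 2 libraries and no control there is no test. Of the 19 regions with a BAP1 peak, 18 also had H2AK119ub, 10 were of type 3, 5 of type 2, 2 of type 4 and 0 of type 1 or at another gene's start, and all 19 were over 90% soft-masked. Of all BAP1-covered bases 83.0% and 83.4% were soft-masked. At type 3 amplicon loci a BAP1 peak was listed at 5.77% and 8.65% in clusters, against 8.73% and 10.29% elsewhere.

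Set against Olfr and Vmn2r windows, the direction of the difference depended on the window length for Olfr but not for Vmn2r. Vmn1r windows held 0.794 ± 0.811 covered bases per kb and Olfr windows 0.522 ± 0.537 (SD, n = 27 libraries; difference 0.272, higher in 21 and lower in 5 libraries). Vmn2r windows held 0.159 ± 0.245 (SD, n = 27; difference 0.636, higher in 22 and lower in 1). These are descriptions with no test, because the family was chosen on some of the libraries and the 27 fall into 9 groups. The difference from Olfr was 0.0453 with 2.5 kb to each side and -0.0761 with 10 kb. Untransfected KO libraries held 1.56 to 2.4995 covered bases per kb of Vmn1r window, against 1.24 to 1.70 in untransfected WT libraries, and 25.4 to 34.0 over all protein-coding genes in KO libraries, against 22.1 to 32.3 in WT libraries.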

How the data were processed

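H2AK119ub was measured in 27 mouse CUT&Tag libraries and BAP1 in 2. Per the processing notes, the authors trimmed reads with Trimmomatic 0.39, mapped them to mm10 with Bowtie2 2.4.1, removed duplicates with Picard and called peaks per library with MACS2 in broad mode at a cutoff of 0.01. The deposited lists give each peak's position with its fold over the background that MACS2 modelled, a −log10 p and −log10 q averaged over the peak, and a score derived from the −log10 q, all made by the authors with MACS2. These were used only to filter peaks. The spike-in normalization is not part of the lists, and Drosophila peaks were left out. Depth is unknown, so no interval for counting error is given.

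Covered kb in windows of 5 kb to each side of every protein-coding TSS was fitted by limma (version 3.58.1, R version 4.3.3), all groups of an experiment sharing 1 model, over windows covered in 3 or more libraries, two-sided, Benjamini-Hochberg adjusted over all windows tested, called under 0.05. Cluster values were compared with exact two-sided permutation tests over libraries. Tests were checked on simulated data, where the limma fit missed more of the changed windows than it called. Python used NumPy 2.4.6, pandas 2.3.3, SciPy 1.17.1 and numba 0.67.0, figures matplotlib 3.10.9, sequence comparison BLAST 2.17.0 (E-value at most 1e-20), and intervals were checked against bedtools 2.31.1. Repeats are the soft-masked bases of the reference. A region's sequence type needed 80% identity, and a locus took a type by 80% identity over 150 bases.

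Members were named by a rule (up to 6 past the threshold per direction whose groups do not overlap, or the 3 largest statistics where none passed; Vmn1r204 and members within 100 kb; the 6 covered in the most libraries; members with BAP1; the widest peak). The members, lists and sequence types were chosen with earlier results of these data known. Alternatives were scaling to equal covered length, no filter, windows of 2.5 and 10 kb, peaks at −log10 q of 5 or more, peaks seen in another replicate, a replicate block, each replicate left out, gaps of 200 kb and, chosen after seeing the data, clusters without 5 kb around the starts of other named genes. The correlations of same-numbered libraries' deviations ran over the comparisons from -0.0371 to 0.239 and were not all above 0.1 in any comparison, so the numbers were not taken as pairs.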

Additional observations from a re-analysis of the deposited data

Results flagged for a closer look

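The effect of Tet2 loss on the share of covered bases in the Vmn1r clusters differed between the siNC mESC and shNC HSPC libraries, which singled it out. These differ at once in cell type, in the kind of RNA given and in peak number, which cannot be told apart. The effect was 0.173 percentage points in siNC mESCs and -0.113 in HSPCs (difference 0.286 points, exact permutation p = 0.01 over 400 arrangements). In untransfected mESCs, which were not tested, the share averaged 0.359% in KO and 0.280% in WT libraries, against 0.453% with KO siNC and 0.280% with WT siNC. The share was higher in all 3 KO siNC libraries than in all 3 WT siNC libraries, and in HSPCs the groups overlap. With clusters joined across gaps of 200 kb or less the difference was 0.116 points (exact permutation p = 0.07). The HSPC share was then higher with KO shNC (0.0655%) than with WT shNC (0.0427%) on average, the same direction as in mESCs. The KO shNC values rest on 0, 1.27 and 0.396 kb of peaks in the clusters. The part that the low peak number of those libraries has in the difference was not tested.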

How the results depend on the processing

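Of the values recomputed under alternatives, 174 kept their direction and side of the threshold or their size, 17 reversed, 21 moved, 3 fell short of the threshold and 1 newly passed it. The exact tests of 3 against 3 libraries cannot give a p below 0.1, so their side of the threshold was fixed in advance. For the tested cluster values with 1 library left out, no p was computed and only the direction was compared. The 174 is therefore no measure of robustness. In the untransfected contrast, which chose the family and is only described, the count of members past limma's threshold was 1 (Vmn1r204) and became 0 with scaling to equal covered length, windows of 2.5 or 10 kb, −log10 q of 5 or more, the replicate block, or any 1 library left out (0 to 0). Vmn1r204 left the fit with windows of 2.5 kb, −log10 q of 5 or more or any KO library left out. In those settings it could not be called. The siNC count of 4 of 7 became 2 of 3 tested with windows of 2.5 kb (7048 of 9809 windows called), 7 of 10 with 10 kb (9297 of 12465) and 1 of 1 with −log10 q of 5 or more (4180 of 4618), and 2 to 4 with 1 library left out (2 of 5 without WT siNC replicate 2 or 3). Vmn1r29 and Vmn1r86 left the fit whenever a WT siNC library was left out. With the replicate block the siNC count was 6, of which 5 lower and 1 higher, with limma adjusted p of 0.0346 for Vmn1r204 (higher) and 0.0355 for Vmn1r149 (lower). The block changed no other member count. As a hint from the data, every library correlated best with its own number, 3 of 3, for siMbd6 and siNsun2 against siNC. The HSPC loss at Vmn1r4 was not called at −log10 q of 5 or more (0 members, limma adjusted p = 0.116).

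Cluster length per Mb reversed at −log10 q of 5 or more for siMbd6 (-0.152) and siNsun2 (-0.0476), and ranged with 1 library left out from -0.164 to 0.467 and from -0.222 to 0.464. In share, siMbd6 was -0.225 at −log10 q of 5 or more, against -0.0111 with all peaks, and ranged from -0.0265 to 0.0188, and siNsun2 from -0.0171 to 0.0728 with 1 library left out, siNsun2 was -0.0755 at −log10 q of 5 or more and -0.00732 without other genes' starts, and untransfected KO against WT was 0.138 at −log10 q of 5 or more. With gaps of 200 kb, KO shNC against WT shNC was 0.0228, KO shMbd6 against KO shNC was -0.0165 (-0.113 and 0.122 at gaps of 1 Mb), both experiments together 0.0810 (exact permutation p = 0.035) and their difference 0.116 (p = 0.07, exact permutation). Both together were -0.0145 at −log10 q of 5 or more and -0.00247 with peaks seen in another replicate. Vmn1r minus Olfr was 0.0453 with 2.5 kb, -0.0761 with 10 kb and 0.0832 at −log10 q of 5 or more. BAP1 peaks in clusters were 3 and 1 at −log10 q of 5 or more, and 8 of replicate 2 were in both libraries. The cause of these changes was not tested. Unknown depth limits every absence: a base outside the lists may be unmarked or thinly read.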
